A study of Mus musculus with 32 samples.

Results

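The genes described here are 10 brakes of the cell cycle and parts of the p53 response, measured in laser-captured regions of mouse mammary tumours. They were taken by symbol from a count table of 24454 gene IDs, and all 10 were found. The cyclin-dependent kinase (CDK) inhibitors of the Cip/Kip family are Cdkn1a (p21), Cdkn1b (p27) and Cdkn1c (p57), and those of the Ink4 family are Cdkn2a and Cdkn2c. Ccng2 and Tob1 are antiproliferative genes outside these families, and Ccng1 is a cyclin G gene induced by p53. Trp53 and Mdm2 encode p53 and its ubiquitin ligase.

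The mice were females that carried MMTV-PyMT, R26-CBW and K8-CreERT2, and 32 libraries were analysed. In these mice the viral oncogene PyMT is driven by the MMTV promoter, which is active in mammary epithelium. Tamoxifen (5 mg at 5 weeks of age) lets a Cre recombinase driven by keratin 8 (K8), a gene of luminal cells, switch on a fluorescent colour that is passed on to daughter cells. Patches of 1 colour were cut from sections of 7 µm when tumours had reached their largest allowed volume. Every region, normal gland included, therefore carried the oncogene and came from a tumour-bearing, tamoxifen-treated animal. Normal gland gave 3 libraries, hyperplasia 5, adenoma 8, carcinoma 9 and lung metastasis 7. Of the normal libraries, normal 28 and normal 30 were pools from several places, and normal 18 was a region that the labels place in the tumour core. The core and the border of the tumour gave 3 regions each in adenoma, and 6 and 3 in carcinoma, and the other 2 adenomas lay outside the tumour. Of the metastases, 4 came from the border of the lung and 3 from its centre. Per the labels, sequencing was kept to the samples of best quality. Libraries are named by stage and number. The design text gives a number of 3, read here as animals, without saying which region came from which. Read so, regions share animals, and p-values over regions, which treat them as independent, are too small where the regions of a group come from few animals.

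A cell divides when cyclins activate CDKs, which release E2F factors from the retinoblastoma protein. Ink4 proteins bind CDK4 and CDK6, and Cip/Kip proteins bind whole cyclin-CDK complexes. The p53 protein is a transcription factor that is stabilised by DNA damage and oncogene stress. It switches on Cdkn1a, Ccng1 and Mdm2 among many others, and Mdm2 in turn marks p53 for destruction. Ccng2 and Cdkn1b are targets of FoxO factors, and Tob1 recruits an enzyme complex that shortens the tails of mRNAs.

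The p53 protein acts on its target genes through DNA, so the 250 bases before each annotated start were searched. RefSeq (GRCm38.p6) holds 12 starts for 9 of the 10 genes, and Cdkn1c is not in the table. The motif was a p53 site of 2 abutting half-sites, with the C and G of each half-site core exact and at most 1 mismatch elsewhere, searched on both strands. These criteria were set after the sequences had been seen. Of 32851 promoters, 19 (0.0578%) held such a site, and 2 of those 19 belonged to Cdkn1a and Ccng1. Both stretches are shown because they carry the sites, which are in capitals. That of Cdkn1a is chr17:29090729-29090978 on the + strand, and its site lies at positions -51 to -32 from the start at 29090979. That of Ccng1 is chr11:40755287-40755536 on the - strand, and its site lies at positions -195 to -176 from the start at 40755286. Cdkn1a has another annotated start, at 29093769, and the 250 bases before it held no such site. The 250 bases before the start of Mdm2 held none either, and DNA outside these stretches was not searched.
Cdkn1a: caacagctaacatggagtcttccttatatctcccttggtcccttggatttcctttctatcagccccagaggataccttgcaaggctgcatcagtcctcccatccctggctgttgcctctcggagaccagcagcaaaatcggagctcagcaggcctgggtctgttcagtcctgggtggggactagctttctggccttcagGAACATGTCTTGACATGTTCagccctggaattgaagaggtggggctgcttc
Ccng1: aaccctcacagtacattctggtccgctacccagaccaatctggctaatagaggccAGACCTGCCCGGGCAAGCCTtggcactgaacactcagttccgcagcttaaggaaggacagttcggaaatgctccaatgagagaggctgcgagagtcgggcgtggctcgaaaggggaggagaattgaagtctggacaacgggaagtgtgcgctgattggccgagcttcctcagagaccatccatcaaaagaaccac
A match is a description of these letters and not a shown binding site. The E2F motif TTTCCCGC was found at -99 to -92 from the upstream start of Cdkn2a (0.895% of promoters hold it). The forkhead motif GTAAACA was found at -153 to -147 from the start of Mdm2 (3.17% of promoters). CCAAT was found in Cdkn1b, Ccng1, Tob1, Trp53 and Mdm2 (33.8% of promoters).

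Total counts per library ranged from 2688611 to 19585351, and 10258 to 17667 genes had a count. Hyperplasia 22, adenoma 51 and metastasis 42 had fewer than 11000 detected genes, and values without them are given beside the fold changes and correlations that they moved most. Krt8, the luminal keratin that drives the Cre, was present in every library, at 230.5 to 1460 CPM. CPM are counts scaled to a common library size after TMM normalization. The summed level of 6 lung epithelium markers was 380.2 to 4427 CPM in metastasis and at most 53.6 CPM in any other library. In captured regions, fewer cells of a type and less RNA per cell cannot be told apart.

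Per kilobase of exon, Tob1 was the most abundant of the 10 genes, with a mean level of 37.1 CPM per kb over 32 libraries. Ccng1 followed at 17.7, Cdkn1a at 9.73, Trp53 at 8.87 and Mdm2 at 7.90 CPM per kb. Ccng2, Cdkn1b, Cdkn1c and Cdkn2c lay close together, at 6.12, 5.91, 5.72 and 5.29 CPM per kb. Cdkn2a was at the bottom with 0.205 CPM per kb. All 10 genes passed the filter on low counts, in which a gene had to reach about 10 counts in as many libraries as the smallest stage holds.

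None of the 10 genes differed between stages at an adjusted p under 0.05. In the test of any difference among the 5 stages, 0 of 10 passed, against a background of 3.58% of 19907 genes. Their adjusted p-values (edgeR quasi-likelihood test, Benjamini-Hochberg) ran from 0.378 for Ccng2 to 0.947 for Cdkn2c, and 0 of 10 had an unadjusted p under 0.05, against 20.9% of genes. Between neighbouring stages the counts were also 0 of 10. The background was 0% of genes for hyperplasia against normal, 0% for adenoma against hyperplasia, 0% for carcinoma against adenoma and 0.0151% for metastasis against carcinoma, and it was 0.00502% for carcinoma against normal. The unadjusted p was under 0.05 for 0 of 10 in each of these comparisons, against 12.4%, 14.8%, 12.6%, 10.9% and 8.17% of genes in the same order. DESeq2 also called 0 of 10 in each of these tests, where it called 2.28% of the genes with an adjusted p for any stage difference and 2.63%, 3.43%, 1.49%, 1.03% and 0.962% in the 5 comparisons, in the order above. The 5 other pairs of stages were tested after the levels had been seen, and 0 of 10 passed in each. The background there was 0.00502% of genes for adenoma and 0.0251% for metastasis against normal, 0% for carcinoma and 0.01% for metastasis against hyperplasia, and 0.0151% for metastasis against adenoma. One unadjusted p under 0.05 was found in 4 of these pairs, for Tob1 (adenoma over normal), Cdkn1a (metastasis over normal), Ccng2 (carcinoma over hyperplasia) and Ccng1 (metastasis over adenoma). The background of that threshold was 13.1%, 9.8%, 12.5% and 14.8% of genes in the same order, and it was 14.2% for metastasis over hyperplasia. None of these 4 held in every fit: when each of the 32 libraries was left out in turn, the p was 0.05 or more in 8 fits for Tob1, 4 for Cdkn1a, 14 for Ccng2 and 1 for Ccng1. DESeq2 called 0 of 10 in these pairs too, against 2.24% and 1.44% of genes for adenoma and metastasis over normal, 2.33% and 3.03% for carcinoma and metastasis over hyperplasia, and 2.46% for metastasis over adenoma. With nearly no gene called by edgeR in these pairs, a count of 0 is no result about these 10 genes.

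**Figure D1:**
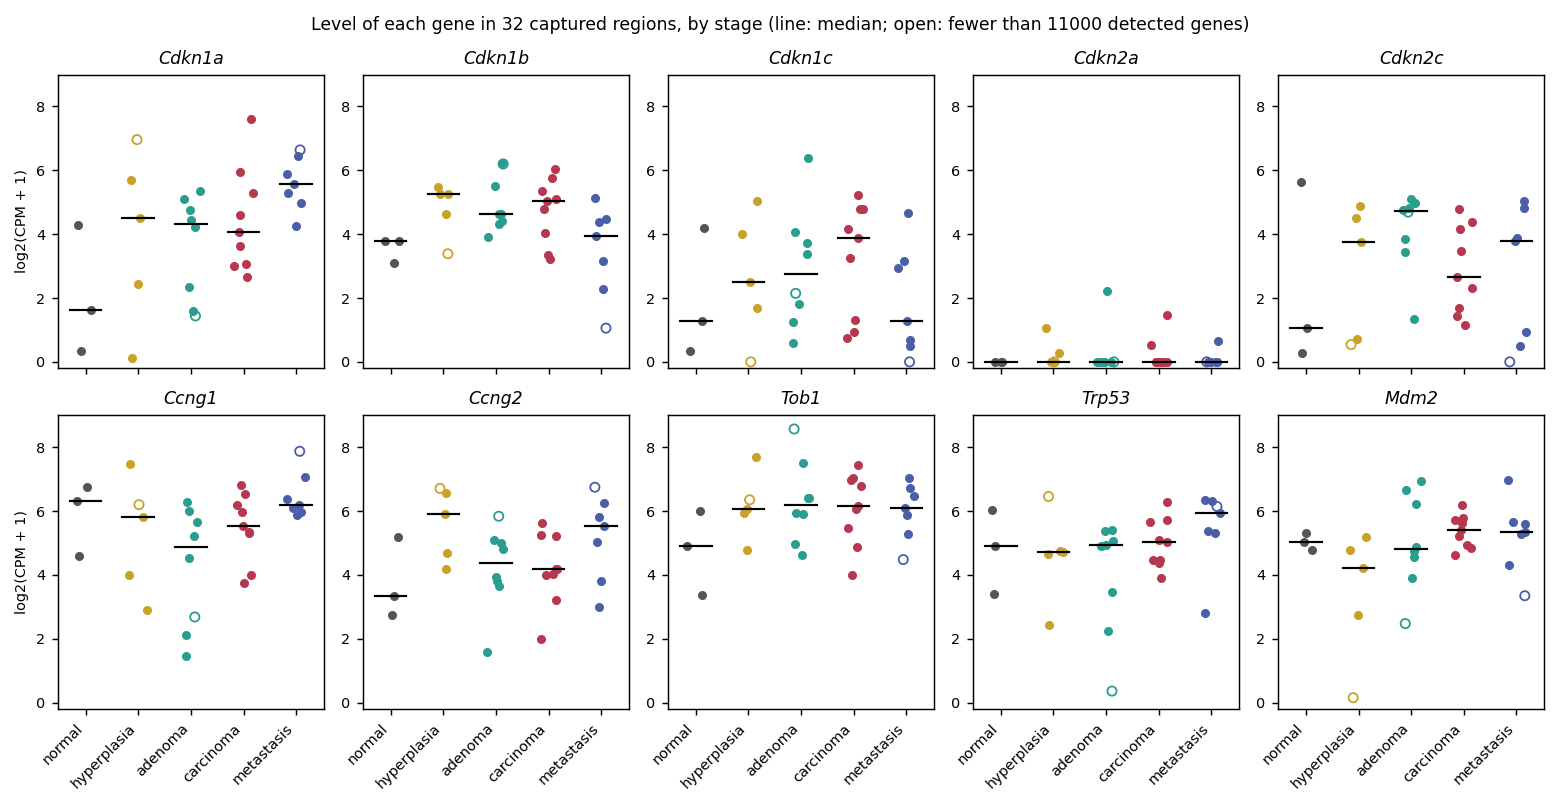
Level of each of the 10 genes as log2(CPM + 1), by stage from normal gland to lung metastasis; points are libraries, lines are stage medians, and open points are the 3 libraries with fewer than 11000 detected genes. Neighbouring stages overlap for all 10 genes, as they do for nearly all genes. Of 19907 genes, 5.12% do not overlap in hyperplasia against normal and 0.0703% in adenoma against hyperplasia. The share is 0.0201% in carcinoma against adenoma and 0.0904% in metastasis against carcinoma. Cdkn2a is at 0 in 26 of 32 libraries.

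Cdkn1a lies on the + strand at chr17:29090976-29100727 (GRCm38.p6). The level of Cdkn1a, the Cip/Kip inhibitor induced by p53, spanned 0.0823 CPM (hyperplasia 46) to 193.8 CPM (carcinoma 55). In normal gland it was 18.4 CPM in normal 18, 0.269 in normal 28 and 2.05 in normal 30. In hyperplasia it was 21.7, 51.2, 123.5, 4.40 and 0.0823 CPM in libraries 21, 44, 22, 33 and 46. The pooled normal libraries were thus low, and hyperplasia held both the lowest library of all and the second highest. In adenoma the lowest, median and highest levels were 1.71, 19.2 and 40.3 CPM, in carcinoma 5.34, 15.6 and 193.8 CPM, and in metastasis 18.2, 46.9 and 98.6 CPM. All 7 metastases were above 18 CPM, whereas the other stages each held a library under 6 CPM. Stage means were 6.90 ± 9.98 CPM for the 3 normal libraries, 40.2 ± 50.7 for the 5 hyperplasias, 18.2 ± 14.7 for the 8 adenomas, 40.3 ± 60.3 for the 9 carcinomas and 53.9 ± 29.4 for the 7 metastases (SD). The carcinoma mean was 21.1 CPM without carcinoma 55, and the hyperplasia mean was 19.3 CPM without hyperplasia 22.

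The fitted log2 fold change of Cdkn1a was 2.52 ± 1.39 (SE) in hyperplasia over normal (edgeR adjusted p = 0.449) and 2.53 ± 1.33 in carcinoma over normal (edgeR adjusted p = 0.623). The size of both turned on single libraries, and both stayed positive with any 1 library left out. Leaving out hyperplasia 22 gave 1.43 in hyperplasia over normal, and leaving out normal 18 gave 5.09. In carcinoma over normal the value was 1.60 without carcinoma 55 and 5.09 without normal 18. The smallest adjusted p of Cdkn1a over all leave-out fits of these comparisons was 0.254. In the pair of metastasis and normal, added after the levels had been seen, the value was 2.95 ± 1.39 (edgeR unadjusted p = 0.0399, adjusted p = 0.485). It was 5.51 without normal 18 and 2.39 without normal 28, and the unadjusted p was 0.05 or more without normal 28, normal 30, metastasis 2 or metastasis 42 and 0.102 with detected genes as a covariate.

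Normal 18 set much of the level in normal gland for several of these genes. It had 17.3 CPM of Cdkn1c, against 0.269 and 1.44 CPM in the pools, and 48.7 CPM of Cdkn2c, against 1.08 and 0.205 CPM. It was also the normal library with the most Ccng2 and Tob1. The same library had the highest summed levels of 8 fibroblast (2831 CPM), 5 adipocyte (694.1 CPM), 8 macrophage (2979 CPM) and 8 lymphocyte markers (916 CPM) of all 32 libraries. In the pools the fibroblast sums were 618.2 and 1557 CPM, and the macrophage sums were 392.2 and 598.3 CPM. No fibroblast, macrophage or lymphocyte marker was at 0 in all normal libraries. The part of these cells in the levels of normal 18 was not tested. Without it, Cdkn1a, Ccng2 and Tob1 had an unadjusted p under 0.05 in hyperplasia over normal (log2 fold changes of 5.09, 3.01 and 2.19), 3 of 10 against 12.2% of 21206 genes in the same fit. The adjusted threshold was passed by 0 of 10 and by 0% of genes there.

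Cdkn1b holds resting cells out of the cycle, and its levels within a stage were more even than those of Cdkn1a, Cdkn1c and Cdkn2c. Its stage means were 11.1 ± 3.02 CPM for the 3 normal libraries, 30.3 ± 13.7 for the 5 hyperplasias, 36.4 ± 24.4 for the 8 adenomas, 31.4 ± 19.3 for the 9 carcinomas and 14.6 ± 11.4 for the 7 metastases (SD). It was present in all 32 libraries, and stage accounted for 30.2% of the variance of its log2(CPM + 1), the largest share of the 10 genes, against a median of 13.4% over all genes tested. All 8 adenomas lay above the normal libraries: the adenomas ran from 14.0 to 74.0 CPM with a median of 23.8 CPM, and the normal libraries had 7.59, 12.9 and 12.7 CPM. It was the single member of the 10 that did not overlap in adenoma against normal, a pair added after the levels had been seen, where 3.11% of genes did not overlap. The fitted log2 fold change there was 1.72 ± 0.96 (edgeR adjusted p = 0.447). In metastasis over carcinoma it was -1.10 ± 0.66 (edgeR adjusted p = 0.606), and the lowest metastasis was metastasis 42 with 1.08 CPM, from 4 counts.

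Cdkn1c, an imprinted inhibitor expressed from the maternal allele, was low and uneven. It had 0 counts in 2 libraries (hyperplasia 22 and metastasis 42) and fewer than 10 counts in 10. Its highest library was adenoma 36 at 82.7 CPM, and the next adenoma had 15.6 CPM. The adenoma mean was 15.96 ± 27.5 CPM (SD, n = 8) with adenoma 36 and 6.42 CPM without it. Metastasis had 0, 1.41 and 24.2 CPM as lowest, median and highest, and carcinoma had 0.669, 13.7 and 36.5 CPM. The log2 fold change in metastasis over carcinoma was -1.31 ± 1.22 (edgeR adjusted p = 0.816), and it was -2.37 without metastasis 57, the metastasis with the highest level.

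Of the Ink4 genes, Cdkn2a was close to absent. Its locus encodes p16Ink4a and p19Arf, the second of which protects p53 from Mdm2, and the count table merges their transcripts under 1 gene ID. It had 0 counts in 26 of 32 libraries, and 136 counts in all. At least 10 counts were found in 4 libraries, hyperplasia 21 (12 counts, 1.07 CPM), adenoma 34 (75 counts, 3.61 CPM), carcinoma 54 (30 counts, 1.77 CPM) and metastasis 2 (11 counts, 0.583 CPM), and hyperplasia 33 and carcinoma 7 had 1 and 7 counts. A count of 0 allows a level of up to 0.130 to 0.856 CPM, depending on the depth of the library and counting error only. Where the count was 0, a level below that cannot be told from absence, and no fold change is given for Cdkn2a.

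Cdkn2c (p18; chr4:109660876-109667189, - strand) had a wide spread in every stage. Its level was 48.7, 1.08 and 0.205 CPM in normal 18, 28 and 30. In hyperplasia it was 12.6, 28.4, 0.455, 0.628 and 21.7 CPM in libraries 21, 44, 22, 33 and 46. The lowest, median and highest levels were 1.55, 25.4 and 33.3 CPM in adenoma, 1.22, 5.34 and 26.6 CPM in carcinoma, and 0, 12.8 and 31.5 CPM in metastasis. Each stage thus held a library under 2 CPM and a library above 26 CPM. Carcinoma over adenoma gave a log2 fold change of -1.10 ± 1.02 (edgeR adjusted p = 0.772). In hyperplasia over normal its sign turned on normal 18, from -0.39 with it to 4.32 without it.

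Ccng1 (chr11:40748552-40755311, - strand) and Ccng2 (chr5:93267257-93276231, + strand) had their highest levels of all in the same library, metastasis 42, at 233.5 and 106.5 CPM. For Ccng1 the stage means were 69.7 ± 42.8 CPM for the 3 normal libraries, 65.6 ± 68.7 for the 5 hyperplasias, 32.3 ± 28.9 for the 8 adenomas, 54.4 ± 33.6 for the 9 carcinomas and 101 ± 63.5 for the 7 metastases (SD). The 7 metastases ran from 57.8 to 233.5 CPM with a median of 72.6 CPM, and the 8 adenomas ran from 1.78 to 77.5 CPM with a median of 29.2 CPM. The lowest metastasis was thus at 57.8 CPM of Ccng1, whereas adenomas included 3 libraries under 6 CPM (47, 48 and 51). Metastasis over adenoma, a pair added after the levels had been seen, gave a log2 fold change of 1.64 ± 0.66 (edgeR unadjusted p = 0.0165, adjusted p = 0.204). It was 1.29 without metastasis 42 and 1.13 without the 3 libraries with few detected genes, where the unadjusted p was 0.0571 and 0.0894. In that pair 14.8% of genes had an unadjusted p under 0.05. Metastases were also the libraries with lung epithelium, as given above, and the part of lung cells in the level of Ccng1 was not tested.

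Ccng2 was highest in hyperplasia and metastasis. Its level was 58.7, 17.3, 103.6, 24.9 and 93.9 CPM in hyperplasia 21, 44, 22, 33 and 46, and 35.7, 9.15 and 5.75 CPM in normal 18, 28 and 30. Hyperplasia over normal gave a log2 fold change of 1.82 ± 1.03 (edgeR adjusted p = 0.464). The lowest, median and highest levels were 2.03, 20.7 and 56.2 CPM in adenoma, 3.02, 17.1 and 48.5 CPM in carcinoma, and 6.94, 45.2 and 106.5 CPM in metastasis. Carcinoma over hyperplasia gave -1.44 ± 0.71 (edgeR unadjusted p = 0.0477, adjusted p = 0.396). Without hyperplasia 22 it was -1.15, with an unadjusted p of 0.124, and without the 3 libraries with few detected genes that p was 0.108. Adenoma over hyperplasia gave -1.34 ± 0.73 (edgeR adjusted p = 0.390) and metastasis over carcinoma gave 1.11 ± 0.65 (edgeR adjusted p = 0.597). The groups overlapped in each of these comparisons, as they did for all but 0.0703 to 5.12% of genes.

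Tob1 had at least 10 counts in every library and the smallest level found was 9.44 CPM in normal 30. Its stage means were 34.2 ± 27.5 CPM for the 3 normal libraries, 87.9 ± 68.8 for the 5 hyperplasias, 113 ± 118 for the 8 adenomas, 84.5 ± 53.2 for the 9 carcinomas and 72.8 ± 38.1 for the 7 metastases (SD). Adenoma 51, which has few detected genes, had 379.6 CPM, and the adenoma mean was 74.7 CPM without it. Over normal, its log2 fold change was 1.36 ± 0.84 in hyperplasia (edgeR adjusted p = 0.514), 1.72 ± 0.81 in adenoma (edgeR adjusted p = 0.359) and 1.30 ± 0.78 in carcinoma (edgeR adjusted p = 0.663). The value in adenoma was 1.02 without adenoma 51 and 2.55 without normal 18, and in carcinoma it was 2.14 without normal 18. Hyperplasia over normal gave 2.19 without normal 18 and 0.71 without hyperplasia 46. The unadjusted p of adenoma over normal, 0.0406 with all libraries, was 0.146 without the 3 libraries with few detected genes.

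Trp53 was transcribed in every library, and its level, like those of the other members, varied less between stages than within them. Stage accounted for 15.6% of the variance of its log2(CPM + 1), against a median of 13.4% over all genes tested. Its level was 29.2, 9.68 and 64.2 CPM in normal 18, 28 and 30, and 25.9, 25.4, 86.96, 4.40 and 24.04 CPM in hyperplasia 21, 44, 22, 33 and 46. The lowest, median and highest levels were 0.285, 29.4 and 41.4 CPM in adenoma, 13.9, 31.5 and 76.5 CPM in carcinoma, and 6.02, 59.8 and 80.2 CPM in metastasis. The lowest adenoma was adenoma 51, with 1 count. Carcinoma over adenoma gave a log2 fold change of 0.60 ± 0.65 (edgeR adjusted p = 0.830), and metastasis over carcinoma gave 0.59 ± 0.66 (edgeR adjusted p = 0.866). These values concern the amount of Trp53 mRNA, while the p53 protein is controlled mainly by its stability.

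Mdm2 (chr10:117688875-117710758, - strand) was lowest in hyperplasia and spread widely in adenoma and metastasis. Its level was 17.7, 26.4, 0.114, 35.4 and 5.76 CPM in hyperplasia 21, 44, 22, 33 and 46, against 31.7, 38.5 and 26.7 CPM in normal 18, 28 and 30. Hyperplasia over normal gave a log2 fold change of -0.92 ± 0.93 (edgeR adjusted p = 0.727). The lowest, median and highest levels were 4.57, 27.2 and 122.2 CPM in adenoma, 23.6, 41.7 and 71.8 CPM in carcinoma, and 9.19, 39.5 and 123.7 CPM in metastasis. The 3 lowest libraries of all were hyperplasia 22, adenoma 51 and hyperplasia 46, and the first of these had 1 count of Mdm2 beside 1085 counts of Cdkn1a. Adenoma over hyperplasia gave 1.52 ± 0.78 (edgeR adjusted p = 0.357), and the value was 1.14 without hyperplasia 22. Without the 3 libraries with few detected genes it was 1.35 (edgeR unadjusted p = 0.0379, adjusted p = 0.383).

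**Figure D2:**
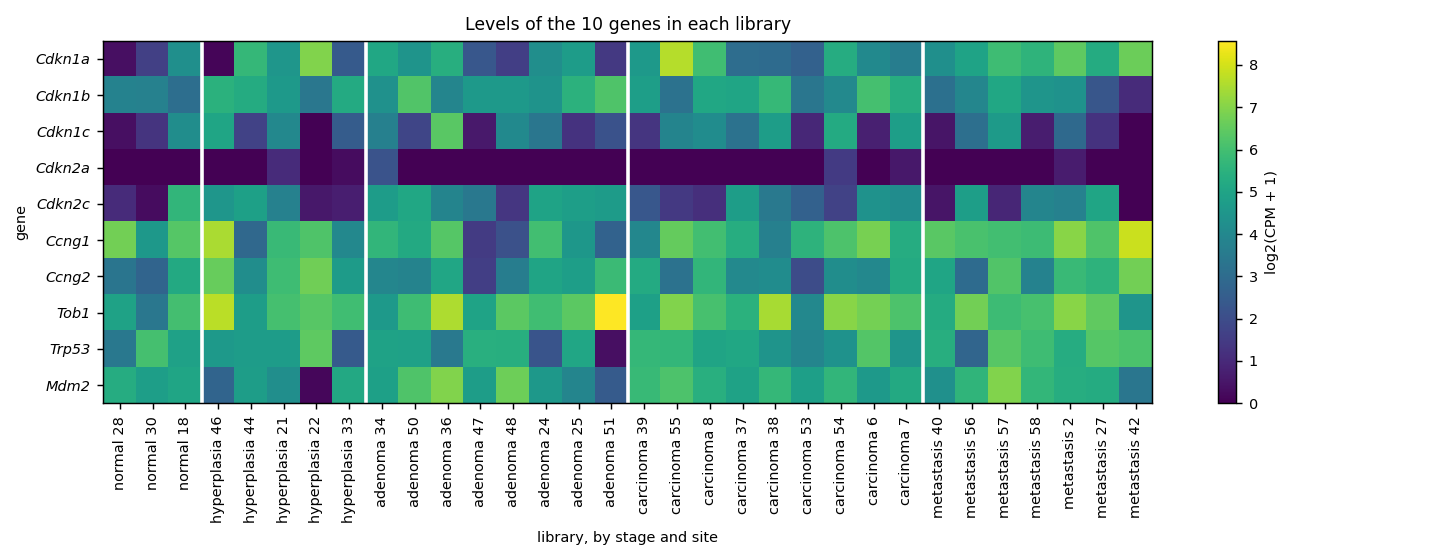
Level of each of the 10 genes as log2(CPM + 1) in each of the 32 libraries, ordered by stage and site; rows are genes, columns are libraries and white lines part the stages. Single libraries stand out by gene, such as carcinoma 55 for Cdkn1a (193.8 CPM), adenoma 51 for Tob1 (379.6 CPM) and metastasis 42 for Ccng1 (233.5 CPM).

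Within carcinoma, Cdkn1a was lower in the core of the tumour than at its border. Its level was 15.6, 7.35, 5.34, 11.4, 7.01 and 38.2 CPM in the core (carcinoma 6, 37, 53, 7, 38 and 54), against 60.4, 23.3 and 193.8 CPM at the border (carcinoma 8, 39 and 55). Only carcinoma 54 of the core reached into the range of the border. The means were 14.1 ± 12.4 CPM in the core (SD, n = 6) and 92.5 ± 89.7 CPM at the border (n = 3). The log2 fold change of core over border was -2.70 ± 1.003 (edgeR unadjusted p = 0.00924, adjusted p = 0.781), which does not pass the threshold. No gene of the 22676 tested passed (0%), and 5.63% had an unadjusted p under 0.05, against 1 of these 10. The value was -1.56 without carcinoma 55 (edgeR unadjusted p = 0.190).

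Carcinoma 55 also had the highest summed fibroblast markers of the 9 carcinomas, 2313 CPM, and the other carcinomas had 16.1 to 475.1 CPM. All 8 fibroblast markers were detected in carcinoma. The border regions carcinoma 8 and carcinoma 39 had 182.7 and 344.5 CPM of these markers, within the range of 16.1 to 475.1 CPM in the core. The part of fibroblasts in the level of Cdkn1a was not tested. Cdkn1a in adenoma showed no such order, with 17.8, 25.96 and 1.71 CPM in the core, against 4.06, 1.99 and 40.3 CPM at the border, and a log2 fold change of -0.02 ± 1.202 (edgeR adjusted p = 1) that was 2.25 without adenoma 36. The contrast of core over border was lower in carcinoma than in adenoma by 2.68 ± 1.59 on the log2 scale (edgeR unadjusted p = 0.0977, adjusted p = 0.683), a test added after the values had been seen, so the stages were not shown to differ.

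Cdkn2c had the opposite order, higher in the core than at the border, in both adenoma and carcinoma. In adenoma its level was 30.6, 27.3 and 24.8 CPM in the core (24, 25 and 51), against 9.91, 1.55 and 13.5 CPM at the border (47, 48 and 36). In carcinoma it was 19.62, 26.6, 5.34, 16.8, 10.1 and 2.24 CPM in the core (6, 37, 53, 7, 38 and 54), against 1.22, 4.03 and 1.68 CPM at the border (8, 39 and 55). The adenoma groups did not overlap, and in carcinoma only carcinoma 54 fell into the range of the border. The log2 fold changes of core over border were 1.73 ± 1.73 in adenoma (edgeR adjusted p = 0.754) and 2.55 ± 1.67 in carcinoma (edgeR adjusted p = 0.859). The 2 adenomas outside the tumour, with 25.97 and 33.3 CPM (34 and 50), were as high as those of the core. Hyperplasia ran the other way, with 12.6, 0.455 and 0.628 CPM in the core (21, 22 and 33), against 28.4 CPM in its single border region (44). In metastasis Cdkn2c had no order by site, with 0.401, 27.01, 0.914 and 13.8 CPM at the border of the lung and 12.8, 0 and 31.5 CPM in its centre.

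Mdm2 was lower in the core than at the border in adenoma. It had 22.6, 14.0 and 4.57 CPM in the core (24, 25 and 51), against 26.2, 101 and 122.2 CPM at the border (47, 48 and 36). The groups did not overlap. The log2 fold change of core over border was -2.59 ± 1.16 (edgeR unadjusted p = 0.0292, adjusted p = 0.514). It was -2.16 without adenoma 51, the core library with few detected genes, and the unadjusted p was 0.05 or more without adenoma 25, 48, 51 or 36. Cdkn2c and Mdm2 were thus the 2 of 10 genes whose adenoma core and border did not overlap, against a background of 5.84% of 22676 genes. The background was 0% for an adjusted p under 0.05 and 9.45% for an unadjusted one, which 1 of the 10 reached. Of the border libraries, adenoma 36 had the highest luminal, basal, fibroblast (1328 CPM), macrophage (738.3 CPM), lymphocyte and erythroid (4511 CPM) marker sums of adenoma. Fibroblast, macrophage and erythroid sums were 62.1, 372.5 and 141.2 CPM in adenoma 48, which had 101 CPM of Mdm2. They were 105.7, 72.7 and 469 CPM in adenoma 47, and 25.4 to 125.7, 150.7 to 239.2 and 0 to 41.2 CPM in the core. The part of these cells in the level of Mdm2 was not tested. In carcinoma Mdm2 had 36.2 ± 11.6 CPM in the core (SD, n = 6) and 55.8 ± 15.2 CPM at the border (n = 3), with a log2 fold change of -0.62 ± 0.93 (edgeR adjusted p = 1).

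**Figure D3:**
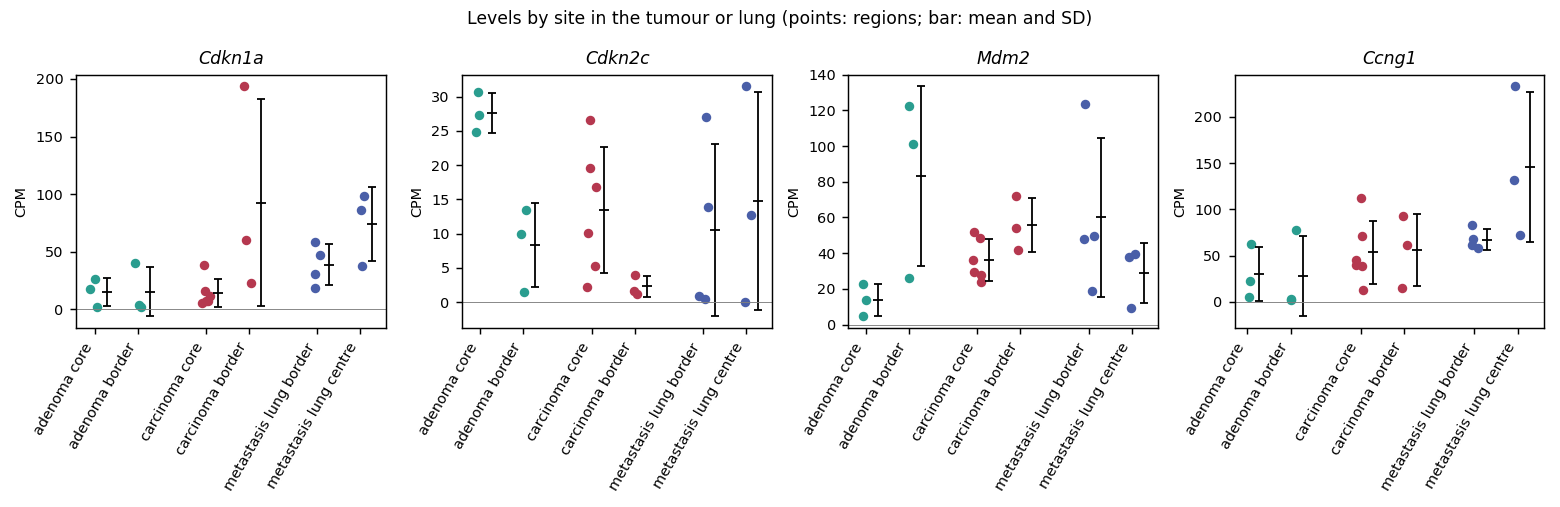
Level in CPM of Cdkn1a, Cdkn2c, Mdm2 and Ccng1 in core and border regions of adenoma and carcinoma and in lung border and lung centre of metastasis; points are regions and bars are mean and SD. Core and border do not overlap in adenoma for Cdkn2c (24.8 to 30.6 and 1.55 to 13.5 CPM) and Mdm2 (4.57 to 22.6 and 26.2 to 122.2 CPM).

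In lung metastasis, 0 of 10 genes had an unadjusted p under 0.05 between lung border and lung centre, against 8.71% of genes, and 0% of genes passed the adjusted threshold. The groups overlapped for all 10 genes, and 2.92% of genes did not overlap. Ccng1 had 82.6, 67.7, 61.4 and 57.8 CPM at the border of the lung (metastasis 40, 56, 57 and 58), against 131.8, 233.5 and 72.6 CPM in its centre (metastasis 2, 42 and 27). Its log2 fold change of border over centre was -1.12 ± 0.94 (edgeR adjusted p = 0.720) and was -0.56 without metastasis 42. Lung epithelium markers summed to 380.2 to 3873 CPM in border regions and 788.2 to 4427 CPM in central ones. Their part in these levels was not tested.

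**Figure D4:**
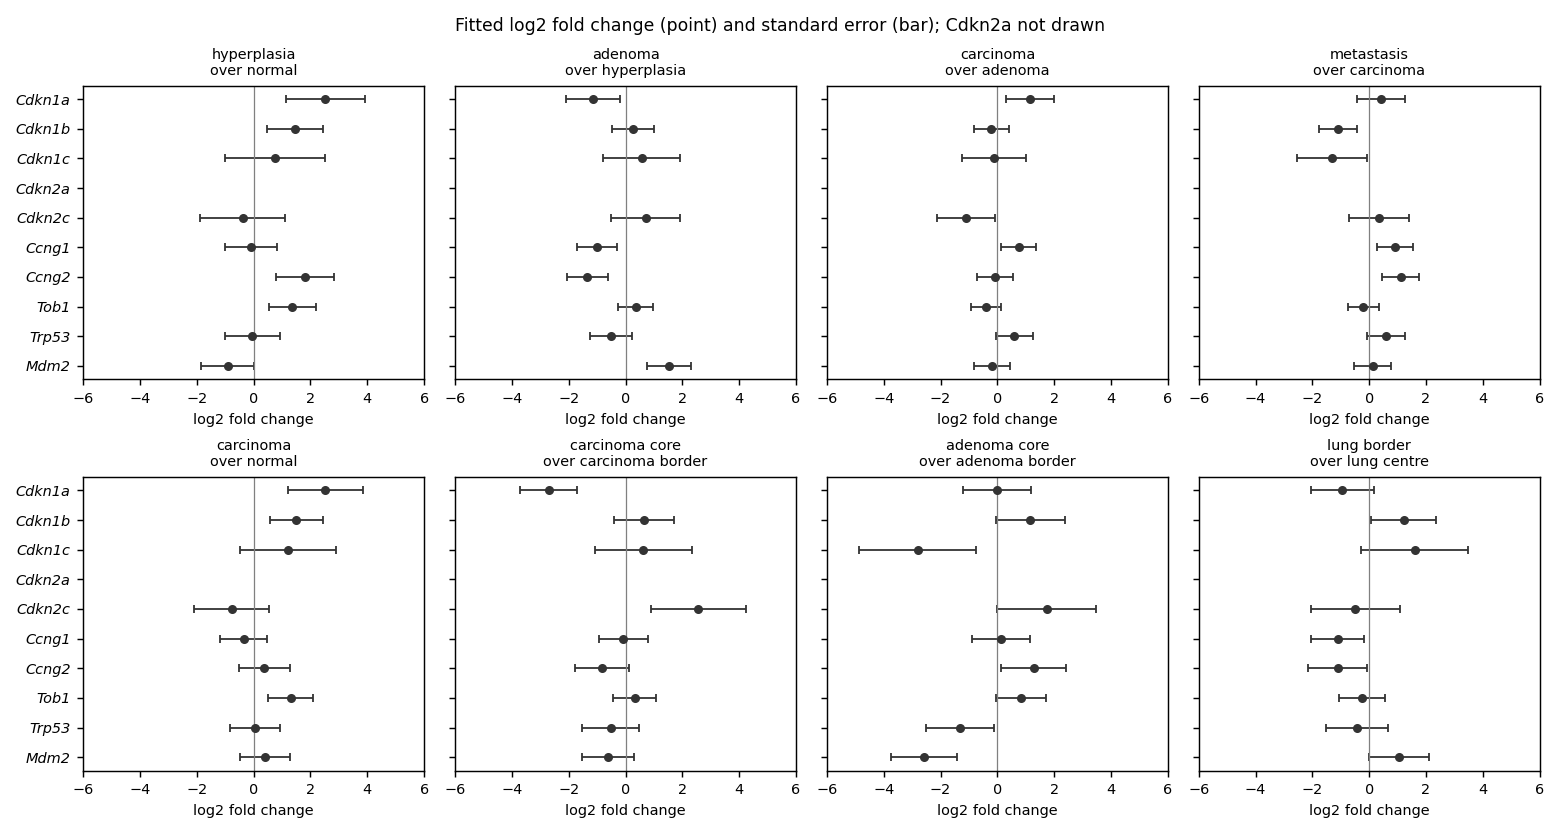
Fitted log2 fold change (points) and standard error (bars) of 9 of the 10 genes in neighbouring stages, carcinoma over normal and the pairs of sites; Cdkn2a is not drawn because most of its libraries are at 0. Of the changes drawn, the largest in size is that of Cdkn1c in adenoma core over border (-2.80 ± 2.05), and no change passes the adjusted threshold.

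How the genes moved with cell division was described with a proliferation score, the mean log2(CPM + 1) of 38 genes of DNA synthesis and mitosis. Mki67, the gene of the Ki-67 marker, is part of the score. Its Spearman's rho with a score of the other genes, without Mki67, was 0.56 over 32 libraries. The rho of the 10 genes with the full score ran from -0.17 for Ccng1 to 0.38 for Cdkn2a, which was at 0 in most libraries. Cdkn1c had 0.33, Cdkn1b 0.29, Mdm2 0.27, Cdkn2c 0.19, Trp53 0.11, Cdkn1a 0.06, Ccng2 0.04 and Tob1 0.02. All these values lie between the 5th and 95th percentiles of the 12479 genes that averaged at least 5 CPM, -0.30 and 0.45. No inhibitor thus ran clearly against the score over these libraries, which share animals and differ in depth. For Mdm2, Pearson's r was 0.58 with all libraries and 0.04 without the 3 libraries with few detected genes, so that the relation rests on them. For Ccng2 the rho was 0.28 and r was 0.37 without these 3 libraries, against an r of -0.06 with all. Tob1 likewise had an r of 0.27 without them and -0.04 with all.

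Among themselves the genes were weakly related. Over the 36 pairs of the 9 genes other than Cdkn2a, the median Spearman's rho was 0.10, and 22 pairs were positive. The median over all pairs of these 12479 genes was 0.02. The highest rho was 0.46 between Cdkn1c and Tob1 and the lowest was -0.50 between Cdkn1b and Ccng1. These 2 were 0.51 and -0.39 without the 3 libraries with few detected genes, and Cdkn1c with Ccng2 went from 0.18 to 0.46. Trp53 gave 0.41 with Cdkn1a, 0.16 with Ccng1 and 0.02 with Mdm2, all 3 of them p53 targets. Without the 3 libraries with few detected genes these values were 0.24, -0.03 and 0.11. Cdkn1a and Ccng1 gave 0.37 with each other, and 0.24 without these libraries. The genes with the pattern most like that of each member, by rho over 32 libraries, were Rnf13 (0.73) and Hspa8 (0.70) for Cdkn1a, Lmo4 (0.77) and Slc12a2 (0.76) for Tob1, and Ddx1 (0.69) and Rbmxl1 (0.68) for Trp53. For Mdm2 they were Hsdl2 (0.68) and Thumpd2 (0.68), and for Ccng1 Kazn (0.65) and B2m (0.64). For Cdkn1b they were Ptov1 (0.69) and Chchd2 (0.67), for Cdkn1c Arhgef19 (0.70) and Pdcd2 (0.68), for Cdkn2c Galnt7 (0.67) and Atg4c (0.66), and for Ccng2 Mrps15 (0.64) and Arf1 (0.63). These are the highest of 12479 genes searched, and the correlations are descriptions over libraries that share animals.

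Other genes of the pathway were taken from lists, and all their genes passed the filter. In the test of any stage difference, 0 of 40 p53 targets passed, and 6 had an unadjusted p under 0.05, against the background of 3.58% and 20.9% of genes. The p53 target of smallest p was Rps27l (edgeR adjusted p = 0.109). This ribosomal protein-like gene had 376 ± 80.0 CPM in the 3 normal libraries, 1216 ± 599 in the 5 hyperplasias, 1172 ± 220.3 in the 8 adenomas, 877 ± 529 in the 9 carcinomas and 822 ± 374 in the 7 metastases (SD). The median log2 fold change of the 40 targets was 0.06 in hyperplasia over normal, 0.32 in adenoma over hyperplasia, -0.13 in carcinoma over adenoma and 0.25 in metastasis over carcinoma. Over all genes these medians were 0, 0.06, 0.02 and -0.01. In adenoma core over border 6 of the 40 had an unadjusted p under 0.05 (edgeR), against 9.45% of genes, 0 passed, and the median was -0.53, against 0 over all genes.

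Of 22 regulators of p53, 0 passed in the test of any stage difference. Trp53bp1, whose product gathers at broken DNA, came nearest (edgeR adjusted p = 0.0501), with 36.8 ± 7.69 CPM for the 3 normal libraries, 228 ± 257 for the 5 hyperplasias, 64.9 ± 48.3 for the 8 adenomas, 67.3 ± 47.5 for the 9 carcinomas and 52.3 ± 35.1 for the 7 metastases (SD). None of the 3 other inhibitors (Cdkn2b, Cdkn2d and Cdkn3), the 12 genes acting on Cip/Kip proteins, the 10 CDKs and cyclins of G1 and S phase, the 19 genes of the Rb, E2F and DREAM complexes or the 20 genes of quiescence passed either. The unadjusted p was under 0.05 for 0, 0, 1, 1 and 2 of them in this order. Ccnd1, the cyclin D1 gene whose kinase partners the Ink4 proteins block, had the smallest p of the cyclins (edgeR adjusted p = 0.113). Its level was 111 ± 60.3 CPM for the 3 normal libraries, 356 ± 210 for the 5 hyperplasias, 397 ± 99.7 for the 8 adenomas, 494 ± 349 for the 9 carcinomas and 245 ± 180 for the 7 metastases (SD). Txnip, a growth-restraining gene of the quiescence list, had an edgeR adjusted p of 0.0692.

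Of 38 proliferation genes, 1 passed, Ube2c (edgeR adjusted p = 0.0274), against 3.58% of all genes. It did not pass without normal 28 or without normal 30. It encodes the ubiquitin-conjugating enzyme of the anaphase-promoting complex. Ube2c had 22.0 ± 16.1 CPM in the 3 normal libraries, 161 ± 84.6 in the 5 hyperplasias, 244 ± 121 in the 8 adenomas, 113 ± 56.1 in the 9 carcinomas and 181 ± 126 in the 7 metastases (SD). Birc5, the proliferation gene of next smallest p, did not pass (edgeR adjusted p = 0.0714). The median log2 fold change of the 38 genes was 0.93 in hyperplasia over normal, 0.11 in adenoma over hyperplasia, -0.42 in carcinoma over adenoma and 0.26 in metastasis over carcinoma. That of the 9 cell cycle and p53 genes other than Cdkn2a was 0.75, 0.26, -0.12 and 0.34 in the same comparisons. Of these 9 genes, 5, 5, 3 and 6 were fitted higher. The 0.75 is the value of Cdkn1c, with an SE of 1.75. It ran from -0.22 without hyperplasia 46 to 3.63 without normal 18.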

How the data were processed

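RNA of 32 laser-captured regions was amplified with Smart-seq2 chemistry, per the labels' protocols. The authors deposited 1 table of raw counts per gene ID, and reads were aligned with STAR to mm10, per the submitters' processing notes. Which counting program, annotation, strand setting and rule for multiply aligned reads were used was not given in the sources used here. Reads carry no molecular identifiers, so intervals and floors cover counting error only.

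Gene IDs were matched to RefSeq GRCm38.p6 symbols (24374 of 24454). One ID without a symbol held 5.20 to 78.9% of the counts of a library. Counts were tested with edgeR 4.0.16 in R 4.3.3 (limma 3.58.1): TMM scaling, filterByExpr with a minimum count of 10, a quasi-likelihood fit with 1 term per stage (19907 genes) or per stage and site (22676 genes), and Benjamini-Hochberg adjustment over all genes at 0.05. A pseudocount of 1 CPM was used for log2 levels. The smallest groups hold 3 libraries, and the common dispersion was 2.64. No 2 libraries were identical. The script was tested on simulated data. Alternatives were DESeq2 1.42.0, its size factors, no filter, detected genes as a covariate, no libraries under 11000 genes and leaving out each library. The members and lists were chosen with earlier results of these data known. The genes named are the members, list genes that passed or had 1 of the 2 smallest p-values in the test of any stage difference, and the 2 genes most like each member.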

Additional observations from a re-analysis of the deposited data

Results flagged for a closer look

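In 14 of the 59 groups of 4 to 10 libraries that were tested by gene, the highest library stood far from the others by Dixon's criterion, which chance meets in about 1 in 20 groups of normally distributed values. CPM are skewed and carcinoma cores are also among the carcinomas, so this rate is no measure of the number found. Of the 14, 5 are groups of Cdkn2a and 9 are of other genes. Cdkn1a was 193.8 CPM in carcinoma 55, with 60.4 CPM in the next carcinoma, and among carcinoma cores it was 38.2 CPM in carcinoma 54, with 15.6 CPM in the next. Cdkn1c was 82.7 CPM in adenoma 36, with 15.6 CPM in the next adenoma, and 24.2 CPM in metastasis 57, with 7.85 CPM in the next metastasis. Ccng1 was 233.5 CPM in metastasis 42, with 131.8 CPM in the next metastasis. Tob1 was 379.6 CPM in adenoma 51, with 180.3 CPM in the next adenoma. Trp53 was 86.96 CPM in hyperplasia 22, with 25.9 CPM in the next hyperplasia, and among carcinoma cores it was 76.5 CPM in carcinoma 6, with 33.5 CPM in the next. Mdm2 was 123.7 CPM in metastasis 57, with 49.8 CPM in the next metastasis.

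For Cdkn2a 26 of 32 libraries were at 0, so that nearly any library with counts stands apart by this criterion. It was 1.07 CPM in hyperplasia 21, 3.61 CPM in adenoma 34, 1.77 CPM in carcinoma 54 (among all carcinomas and among carcinoma cores) and 0.583 CPM in metastasis 2. Of the libraries named here, hyperplasia 22, adenoma 51 and metastasis 42 are the 3 with fewer than 11000 detected genes. The part of this in their levels was not tested.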

How the results depend on the processing

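The count of the 10 genes called was 0 in every comparison under every setting run. The lowest adjusted p of any of them under DESeq2 was 0.0953, for Mdm2 in adenoma core over border, and for Cdkn2a DESeq2 gave no adjusted p in several comparisons. Of the pathway genes, 1 passed in the test of any stage difference, against 2 with DESeq2 size factors (Txnip, Ube2c), 3 with the DESeq2 test (Trp53bp1, Txnip, Ube2c), 4 with no filter (Birc5, Trp53bp1, Txnip, Ube2c) and 0 (without normal 28) to 2 when each library was left out. The cause was not tested. Over all genes the same test called 712, against 338 with DESeq2, 3717 with no filter, 126 without the 3 libraries with few detected genes, and 479 to 1614 with each library left out (1614 without normal 18, 1328 without normal 30 and 1092 without normal 28). With DESeq2 the calls were 483 for hyperplasia against normal, 609 for adenoma against hyperplasia, 269 for carcinoma against adenoma, 186 for metastasis against carcinoma, 177 for carcinoma against normal, and 314, 1133 and 740 for the site comparisons of carcinoma, adenoma and metastasis, where edgeR called 0, 0, 0, 3, 1, 0, 0 and 0. In the pairs added later DESeq2 called 412 (adenoma against normal), 264 (metastasis against normal), 420 (carcinoma against hyperplasia), 539 (metastasis against hyperplasia) and 445 (metastasis against adenoma), where edgeR called 1, 5, 0, 2 and 3. With detected genes as a covariate, carcinoma against adenoma gave 168 and carcinoma against hyperplasia 12. With no filter, metastasis against adenoma gave 14 and metastasis against carcinoma 5, and with DESeq2 size factors adenoma against normal gave 6. DESeq2 size factors gave a median log2 fold change of all genes of -0.35 in hyperplasia over normal (0 with TMM) and -0.31 in carcinoma over normal (0.10 with TMM), where 6 in place of 8 of the 10 genes were fitted higher. No paired analysis was possible because the labels do not say which animal each region came from. For Cdkn2a, with 0 counts in 26 of 32 libraries, a count of 0 allows a level of up to 0.130 to 0.856 CPM, depending on depth.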
